A study of Mus musculus with 12 samples.

Results

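The ephrin, semaphorin and axon guidance families were taken as every gene whose symbol names an Eph receptor, an ephrin, a semaphorin of classes 3 to 7, a plexin, a neuropilin, a Slit, a Robo, a netrin or begins with Unc5. This rule found 69 of the 21960 genes listed for each tumor, namely 14 Eph receptors, 8 ephrins, 20 semaphorins, 9 plexins, 2 neuropilins, 3 Slits, 4 Robos, 3 netrins and 6 genes with an Unc5 symbol. All 69 were matched by Ensembl identifier to the GENCODE vM21 annotation of the mouse genome (GRCm38, also called mm10), and all are annotated as protein coding. Of the Unc5 symbols, Unc50 shares only its name with the netrin receptors, and Unc5cl is a related membrane protein that is not counted among them.

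RNA from whole snap-frozen mammary tumors of 12 female C57BL/6 mice was sequenced, 3 mice in each of 4 groups. All mice carried the polyoma middle T oncogene (PyMT) driven by the MMTV promoter, which is active in mammary epithelium and also in some other epithelia, salivary gland among them. The IgG1 group received an isotype control antibody and the anti-PD-1 group an antibody that blocks the checkpoint receptor PD-1, each starting at a tumor diameter of 0.6 cm with 20 mg/kg and going on with 10 mg/kg every 6 days up to day 18. The DOX/IgG1 and DOX/anti-PD-1 groups started at 1 cm and received 5 mg/kg of the cytostatic drug doxorubicin weekly for 5 weeks, each dose followed a day later by 10 mg/kg of the respective antibody. Doxorubicin therefore goes together with starting size, first antibody dose and schedule, and these cannot be told apart; the labels give 5 weeks of treatment for every group. The ages of the mice are not given in the sources used here.

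Axon guidance molecules were first described as cues that steer growing axons, and the same ligands and receptors act in epithelium, vessels and immune cells. Ephrins are membrane-bound ligands of the Eph receptor tyrosine kinases and can signal in both directions at cell contacts. Secreted class 3 semaphorins bind neuropilins, which pair with plexins for signaling, whereas most membrane-bound semaphorins bind plexins directly. Slits are secreted ligands of Robo receptors, and netrin-1 binds Dcc, neogenin and Unc5 receptors. In the mammary gland these families take part in the growth of ducts, in the adhesion between luminal and basal cells and in the supply of vessels.

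Levels are given in TPM, the share of a gene among all transcripts after correction for transcript length, so levels of different genes can be set side by side. Read counts were not used here and the sequencing depth is unknown, and a value listed at 0 can be a failed estimate. The library of DOX/IgG1 replicate 1 stood apart from the other 11. It had 8104 genes at 0, against 6534 to 7730 in the others, and 121 genes at 0 that reached at least 1 TPM in all other tumors, against 4 to 61. Its mean correlation with the other tumors of its group (Pearson's r across 14735 genes, which are not independent replicates) was 0.8625, and the next lowest value was 0.8875, in DOX/anti-PD-1 replicate 3. It held the highest or lowest value of all 12 tumors in 27 of the 58 members at 1 TPM or more in at least 3 tumors (46.6%), beside 26.5% of all 14735 such genes, and the other 11 tumors did so in 3 to 14 members. Over all genes it stood less apart, since IgG1 replicate 1 (22.9%) and DOX/anti-PD-1 replicate 3 (22.4%) were extreme nearly as often, and the other 9 tumors in 9.09% to 17.6%. For each comparison it belongs to, the counts of members called, at an unadjusted p below 0.05 and, where taken, with groups apart are therefore given with and without it. Counts by direction are given without it only in part. As this tumor was left out partly for its extreme member values, larger member shares and smaller adjusted p without it are favored by that choice.

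The tissue label was checked against marker genes. The luminal epithelial list (6 of 6 genes listed, Epcam the most abundant) summed to 3612, 2529 and 3121 TPM in IgG1, 2858, 2146 and 2376 in anti-PD-1, 2040, 3168 and 3675 in DOX/IgG1 and 3012, 2708 and 2234 in DOX/anti-PD-1. These markers were abundant in all 12 tumors. The markers of B cells (3 of 3 genes listed, Cd79a the most abundant) summed to at most 2.22 TPM in a tumor.

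Other lists differed between groups. Salivary gland markers (5 of 6 genes listed, Muc19 not, Bpifa2 the most abundant) summed to 1.17, 1.78 and 0 TPM in IgG1, 7.36, 0.55 and 15.2 in anti-PD-1, 39.0, 55.2 and 83.9 in DOX/IgG1 and 4.94, 1.41 and 1.49 in DOX/anti-PD-1. The DOX/IgG1 tumors lay above all others in this list, and Bpifa2 was at 0 in the 9 tumors outside that group. Milk protein genes (4 of 4 listed, Csn3 the most abundant) summed to 7340, 4715 and 8270 TPM in IgG1, 6361, 10221 and 7183 in anti-PD-1, 819.5, 3207 and 2464 in DOX/IgG1 and 6003, 8313 and 2838 in DOX/anti-PD-1. The DOX/IgG1 tumors lay below all IgG1 and all anti-PD-1 tumors in this list, and DOX/anti-PD-1 replicate 3 lay among them.

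Stromal lists varied as well. Fibroblast and pericyte markers (8 of 8 listed, Col1a1 the most abundant) summed to 833, 889 and 1375 TPM in IgG1, 687, 586 and 502 in anti-PD-1, 389, 1535 and 1067 in DOX/IgG1 and 820.5, 1083 and 1256 in DOX/anti-PD-1. The 3 anti-PD-1 tumors lay below the 3 IgG1 and the 3 DOX/anti-PD-1 tumors, and DOX/IgG1 replicate 1 was the lowest of the 12. Basal or myoepithelial markers (7 of 7 listed, Acta2 the most abundant) summed to 403, 168 and 369 TPM in IgG1, 183, 285 and 265 in anti-PD-1, 219, 589 and 881 in DOX/IgG1 and 346, 423 and 531 in DOX/anti-PD-1. Here too the DOX/anti-PD-1 tumors lay above the anti-PD-1 tumors, and DOX/IgG1 replicates 2 and 3 were the highest of the 12. Endothelial markers (8 of 8 listed, Pecam1 the most abundant) summed to 129, 134 and 206 TPM in IgG1, 120.0, 115 and 115 in anti-PD-1, 137, 199 and 115 in DOX/IgG1 and 162, 185 and 105 in DOX/anti-PD-1. The anti-PD-1 tumors lay below the IgG1 tumors, and both doxorubicin groups overlapped with them. No listed marker gene of any list was at 0 in all 12 tumors.

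Sums of the other lists were also taken. Macrophage markers (6 of 6 listed, C1qa the most abundant) summed to 325, 256 and 309 TPM in IgG1, 214, 296 and 252 in anti-PD-1, 272, 357 and 353 in DOX/IgG1 and 252, 377 and 288 in DOX/anti-PD-1. T and NK cell markers (6 of 6 listed, Cd3e the most abundant) summed to 22.2, 12.2 and 5.98 TPM in IgG1, 2.68, 15.3 and 8.81 in anti-PD-1, 5.76, 48.0 and 39.1 in DOX/IgG1 and 14.3, 16.7 and 32.8 in DOX/anti-PD-1. Schwann cell and nerve markers (6 of 6 listed, Sox10 the most abundant) summed to 107, 79.5 and 73.0 TPM in IgG1, 79.2, 66.4 and 94.7 in anti-PD-1, 63.7, 117 and 119 in DOX/IgG1 and 107, 75.2 and 116 in DOX/anti-PD-1. Doxorubicin and other tumors overlapped in all 3. Adipocyte markers (5 of 5 listed, Adipoq the most abundant) summed to 36.1, 163 and 104 TPM in IgG1, 45.1, 38.1 and 69.7 in anti-PD-1, 81.1, 384 and 56.1 in DOX/IgG1 and 476, 101 and 107 in DOX/anti-PD-1, and the DOX/anti-PD-1 tumors lay above the anti-PD-1 tumors. Skeletal muscle markers (5 of 5 listed, Acta1 the most abundant) summed to 94.9, 24.4 and 416 TPM in IgG1, 395, 32.0 and 18.5 in anti-PD-1, 39.5, 114 and 159 in DOX/IgG1 and 669, 0 and 129 in DOX/anti-PD-1, with no order between groups. The part of any of these cells in the levels of the axon guidance genes was not tested, and in bulk tumors fewer cells of a type and less RNA per cell cannot be told apart.

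Of the 69 members, 58 were at 1 TPM or more in 3 or more tumors, and 44 were so in all 12. The 11 others were Epha6, Epha8, Epha10, Efna3, Efnb3, Sema3e, Sema5b, Plxna4, Robo3, Ntn5 and Unc5d, of which Epha8 and Ntn5 were listed at 0 in every tumor. Of these 11, Efna3 had the highest single value, 4.22 TPM in DOX/IgG1 replicate 2. Summed over all members, the mean level was 1245 ± 100.3 TPM (SD, n = 3) in IgG1, 1148 ± 67.2 in anti-PD-1, 1278 ± 80.4 in DOX/IgG1 and 1214 ± 218 in DOX/anti-PD-1. These totals overlapped within their SDs. The spread of single members between tumors of 1 group, as the pooled SD of log2(TPM + 1), had a median of 0.53, beside 0.48 over all 14735 genes, and ran from 0.14 for Plxnb2 to 1.16 for Robo2.

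**Figure D1:**
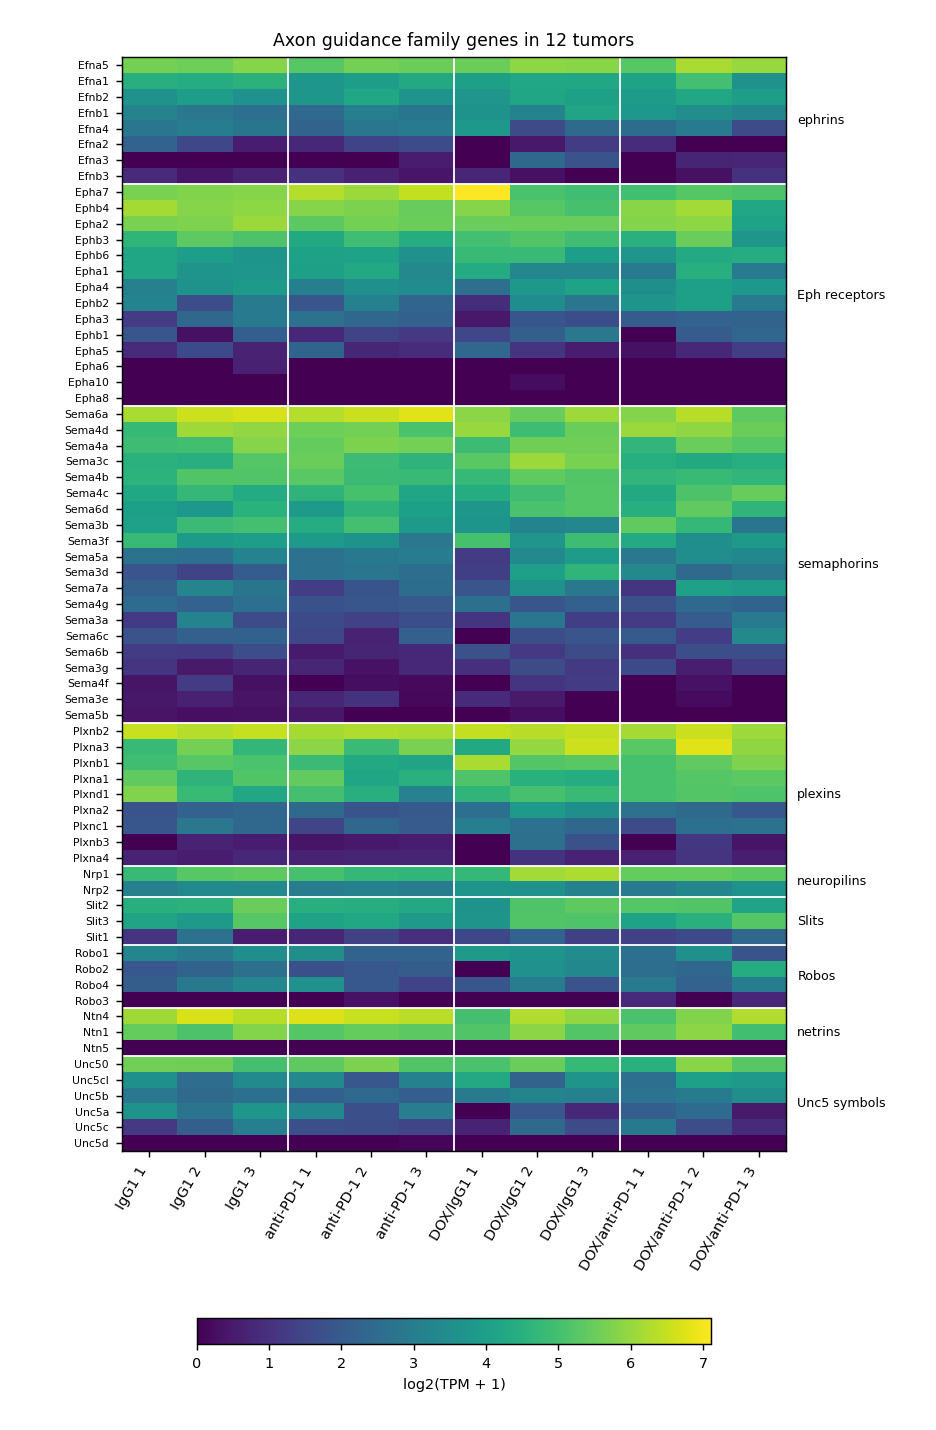
Heat map of log2(TPM + 1) for the 69 members (rows, by family and mean level) in the 12 tumors (columns, by group and replicate number). Sema6a, Plxnb2, Ntn4 and Epha7 are among the brightest rows, and DOX/IgG1 replicate 1 differs from the other DOX/IgG1 tumors in many rows.

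Among the ligands, Efna5 was the most abundant ephrin. Efna5 was at 48.6, 45.4 and 55.4 TPM in IgG1, 37.3, 48.6 and 45.1 in anti-PD-1, 45.1, 59.2 and 56.5 in DOX/IgG1 and 37.2, 72.6 and 63.8 in DOX/anti-PD-1. The groups overlapped. Efnb1, a B-class ephrin on the X chromosome (ENSMUSG00000031217, chrX:99136130-99148991), was at 8.04, 6.10 and 5.05 TPM in IgG1, 4.43, 7.41 and 5.80 in anti-PD-1, 11.6, 8.15 and 16.7 in DOX/IgG1 and 13.0, 10.5 and 8.70 in DOX/anti-PD-1. The 6 doxorubicin tumors lay between 8.15 and 16.7 TPM, above all 6 tumors without doxorubicin, which lay between 4.43 and 8.04 TPM.

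Of the semaphorins, Sema6a, a membrane-bound ligand of A-class plexins, had the highest mean level. Sema6a was at 73.3, 94.0 and 102 TPM in IgG1, 78.7, 92.0 and 109.9 in anti-PD-1, 58.1, 43.1 and 65.9 in DOX/IgG1 and 54.0, 80.5 and 40.1 in DOX/anti-PD-1. The 3 DOX/IgG1 tumors lay below the 3 IgG1 tumors, whereas with anti-PD-1 only DOX/anti-PD-1 replicate 2 reached the range of the tumors without doxorubicin. Sema3b, a secreted semaphorin known as a tumor suppressor in lung cancer, was at 15.9, 27.8 and 30.6 TPM in IgG1, 20.2, 30.5 and 13.7 in anti-PD-1, 11.9, 8.34 and 8.79 in DOX/IgG1 and 40.9, 25.5 and 5.81 in DOX/anti-PD-1. All 3 DOX/IgG1 tumors were below the 3 IgG1 tumors, and the DOX/anti-PD-1 tumors spread over the whole range of the 12.

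Sema3c, a secreted ligand that signals through neuropilins and plexins (ENSMUSG00000028780, chr5:17574281-17730268), was at 22.5, 21.4 and 37.0 TPM in IgG1, 43.8, 28.2 and 23.5 in anti-PD-1, 38.2, 65.4 and 50.5 in DOX/IgG1 and 21.5, 18.8 and 21.2 in DOX/anti-PD-1. The DOX/IgG1 tumors were all above the IgG1 tumors, and the DOX/anti-PD-1 tumors were all below the anti-PD-1 and the DOX/IgG1 tumors. Sema3d, another class 3 semaphorin, was at 2.67, 1.76 and 3.18 TPM in IgG1, 5.32, 5.87 and 4.91 in anti-PD-1, 1.48, 15.2 and 24.2 in DOX/IgG1 and 9.22, 4.53 and 6.24 in DOX/anti-PD-1. DOX/IgG1 replicates 2 and 3 were the highest of the 12 tumors and replicate 1 the lowest, and the anti-PD-1 tumors lay above the IgG1 tumors.

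Sema3f, which signals mainly through neuropilin-2, was at 27.0, 13.7 and 14.6 TPM in IgG1, 13.1, 11.7 and 6.08 in anti-PD-1, 31.8, 12.1 and 29.2 in DOX/IgG1 and 19.2, 10.7 and 13.6 in DOX/anti-PD-1. The anti-PD-1 tumors lay below the IgG1 tumors. Sema6b was at 1.40, 1.33 and 2.20 TPM in IgG1, 0.43, 0.66 and 0.74 in anti-PD-1, 2.38, 1.28 and 2.12 in DOX/IgG1 and 0.98, 2.25 and 2.22 in DOX/anti-PD-1. Its levels were low, with the anti-PD-1 tumors under 1 TPM and the IgG1 tumors above it.

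Slit2 was the most abundant Slit. Slit2 was at 21.6, 22.9 and 44.1 TPM in IgG1, 21.6, 20.5 and 18.8 in anti-PD-1, 11.3, 34.6 and 39.4 in DOX/IgG1 and 37.1, 35.1 and 16.7 in DOX/anti-PD-1. IgG1 replicate 3 was the highest of the 12 tumors and DOX/IgG1 replicate 1 the lowest. Ntn4, a netrin that binds laminin in basement membranes, was at 67.9, 102 and 80.5 TPM in IgG1, 107, 90.9 and 81.6 in anti-PD-1, 31.1, 75.9 and 61.0 in DOX/IgG1 and 32.7, 53.0 and 75.7 in DOX/anti-PD-1. The DOX/anti-PD-1 tumors lay below the anti-PD-1 tumors, and DOX/IgG1 overlapped with IgG1.

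Among the receptors, Epha7 (ENSMUSG00000028289, chr4:28813131-28967499) had the highest mean level of the Eph receptors. Epha7 was at 50.1, 53.1 and 56.0 TPM in IgG1, 79.0, 64.5 and 87.3 in anti-PD-1, 138, 32.7 and 29.3 in DOX/IgG1 and 30.3, 36.8 and 33.9 in DOX/anti-PD-1. DOX/IgG1 replicate 1 was the highest of the 12 tumors, whereas the other 5 doxorubicin tumors lay between 29.3 and 36.8 TPM and the 6 tumors without doxorubicin between 50.1 and 87.3 TPM. Epha3 was at 1.37, 4.18 and 6.66 TPM in IgG1, 5.34, 4.32 and 3.50 in anti-PD-1, 0.39, 2.74 and 2.26 in DOX/IgG1 and 3.21, 3.73 and 3.79 in DOX/anti-PD-1. The DOX/anti-PD-1 tumors lay above the DOX/IgG1 tumors and within the range of the IgG1 tumors.

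Plxnb2 was the most abundant plexin, and the least variable of the 58 members at 1 TPM or more in 3 or more tumors. Plxnb2 was at 90.2, 79.7 and 88.8 TPM in IgG1, 69.9, 76.1 and 72.4 in anti-PD-1, 86.7, 80.6 and 87.2 in DOX/IgG1 and 70.4, 93.1 and 66.3 in DOX/anti-PD-1. The anti-PD-1 tumors lay below the IgG1 and the DOX/IgG1 tumors, and the DOX/anti-PD-1 tumors spread over the range of all others. Plxnb1, the receptor of Sema4d, was at 29.5, 37.4 and 33.6 TPM in IgG1, 28.1, 19.2 and 16.9 in anti-PD-1, 73.6, 35.9 and 38.3 in DOX/IgG1 and 32.2, 40.7 and 52.0 in DOX/anti-PD-1. The anti-PD-1 tumors were below all IgG1 and all DOX/anti-PD-1 tumors, and DOX/IgG1 replicate 1 was the highest.

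Plxna2 was at 2.55, 3.71 and 4.07 TPM in IgG1, 4.45, 2.61 and 3.07 in anti-PD-1, 5.10, 13.3 and 10.6 in DOX/IgG1 and 5.32, 4.51 and 2.89 in DOX/anti-PD-1. DOX/IgG1 replicates 2 and 3 stood above the other 10 tumors. Plxnd1, a receptor known from vessels, was at 53.5, 27.2 and 18.0 TPM in IgG1, 31.3, 20.9 and 7.82 in anti-PD-1, 24.0, 31.7 and 27.0 in DOX/IgG1 and 32.1, 36.1 and 34.5 in DOX/anti-PD-1. The DOX/anti-PD-1 tumors lay above the anti-PD-1 and DOX/IgG1 tumors, and IgG1 replicate 1 was the highest of all.

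Nrp1, a neuropilin that also binds VEGF, was at 26.8, 37.7 and 39.7 TPM in IgG1, 32.3, 25.7 and 24.7 in anti-PD-1, 25.6, 68.9 and 74.2 in DOX/IgG1 and 42.3, 41.9 and 39.2 in DOX/anti-PD-1. DOX/IgG1 replicates 2 and 3 were the highest, replicate 1 was below the 3 IgG1 tumors, and the DOX/anti-PD-1 tumors lay above the anti-PD-1 tumors. Robo1 was the most abundant Robo and was at 8.54, 6.62 and 10.2 TPM in IgG1, 10.5, 3.79 and 3.84 in anti-PD-1, 13.4, 11.8 and 9.87 in DOX/IgG1 and 5.03, 10.8 and 2.61 in DOX/anti-PD-1. The groups overlapped. Robo2 was at 2.79, 3.83 and 5.12 TPM in IgG1, 2.34, 2.80 and 3.28 in anti-PD-1, 0, 11.2 and 9.06 in DOX/IgG1 and 4.93, 4.20 and 20.0 in DOX/anti-PD-1. It was listed at 0 in DOX/IgG1 replicate 1, and the DOX/anti-PD-1 tumors lay above the anti-PD-1 tumors.

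Of the Unc5 symbols, Unc50 had the highest mean level and was at 47.7, 46.4 and 31.4 TPM in IgG1, 40.1, 51.6 and 35.4 in anti-PD-1, 32.6, 43.9 and 26.3 in DOX/IgG1 and 21.7, 56.5 and 37.5 in DOX/anti-PD-1. The groups overlapped. Unc5a, a netrin receptor (ENSMUSG00000025876, chr13:54949411-55006018), was at 11.3, 5.61 and 12.3 TPM in IgG1, 9.06, 2.32 and 7.17 in anti-PD-1, 0, 2.79 and 0.78 in DOX/IgG1 and 3.45, 4.61 and 0.43 in DOX/anti-PD-1. The DOX/IgG1 tumors, of which replicate 1 was listed at 0, lay below the IgG1 tumors, and with anti-PD-1 the groups overlapped.

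**Figure D2:**
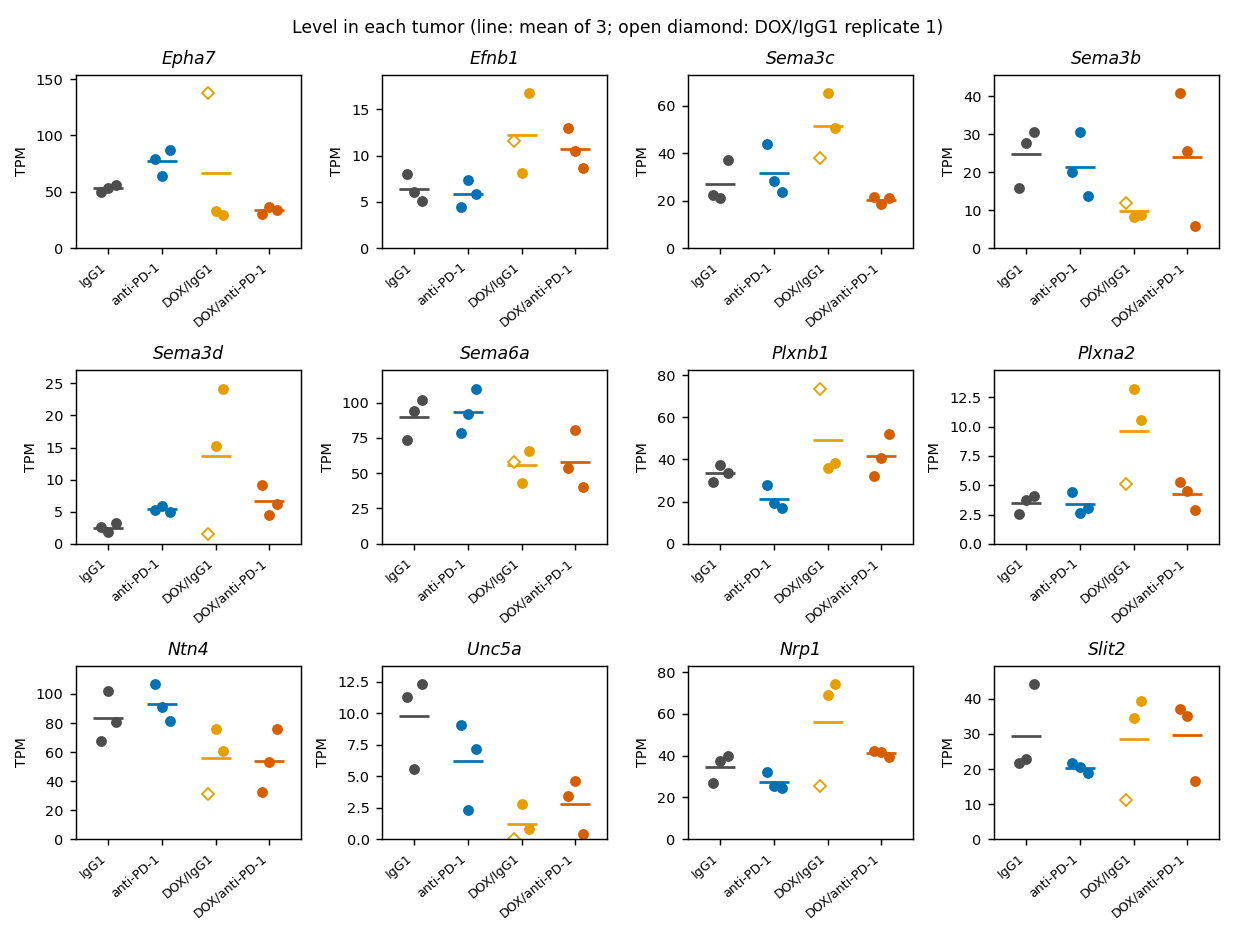
Level in TPM of 12 members in each tumor, by group, with a line at the mean of 3 tumors and an open diamond for DOX/IgG1 replicate 1. Epha7 in that tumor is at 138 TPM, and the other 5 doxorubicin tumors lie at 29.3 to 36.8 TPM.

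The start-site regions of Epha7, Efnb1 and Sema3c are shown as examples of members with groups apart in a comparison, chosen after their values were seen. Each is the 300 bases of the RefSeq promoter table (GRCm38.p6, plus strand), and capitals mark the GC box GGGCGG or its reverse complement CCGCCC. Epha7 (chr4:28812881-28813180, the first of 2 start sites in the table) holds 1 GC box, Efnb1 (chrX:99135811-99136110) holds 0 and Sema3c (chr5:17574566-17574865, inside the gene as GENCODE gives it) holds 3.
Epha7: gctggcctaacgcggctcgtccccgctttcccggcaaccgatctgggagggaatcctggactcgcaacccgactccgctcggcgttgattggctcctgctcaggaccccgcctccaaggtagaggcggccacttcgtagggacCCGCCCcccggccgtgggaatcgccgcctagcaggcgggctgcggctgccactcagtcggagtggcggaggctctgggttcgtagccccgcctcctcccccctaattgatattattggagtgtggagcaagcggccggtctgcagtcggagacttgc
Efnb1: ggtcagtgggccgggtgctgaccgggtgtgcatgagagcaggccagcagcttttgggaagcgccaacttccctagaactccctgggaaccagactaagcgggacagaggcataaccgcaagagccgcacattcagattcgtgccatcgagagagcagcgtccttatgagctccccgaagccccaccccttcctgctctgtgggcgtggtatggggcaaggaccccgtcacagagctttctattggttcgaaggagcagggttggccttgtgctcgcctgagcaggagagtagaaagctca
Sema3c: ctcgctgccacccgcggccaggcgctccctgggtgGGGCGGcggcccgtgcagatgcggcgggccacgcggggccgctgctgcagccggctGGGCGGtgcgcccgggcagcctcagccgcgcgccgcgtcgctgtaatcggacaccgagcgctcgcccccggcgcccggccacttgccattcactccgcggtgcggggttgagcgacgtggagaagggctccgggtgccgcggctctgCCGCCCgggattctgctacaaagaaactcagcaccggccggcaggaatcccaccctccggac
The table held a promoter for 60 of the 69 members, and 45 of these (75%) held the GC box on either strand, beside 47.6% of 16128 listed protein-coding genes with 1 promoter each, taken the same way, and 35.7% of all 32851 promoters. The median number of CpG dinucleotides was 22 in the members, 14 in the protein-coding genes and 7 in all promoters.

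Genes were compared with limma on log2(TPM + 1), two-sided, with p-values adjusted over all genes tested, and called where the adjusted p was below 0.1 and the log2 fold change above 1 in size. Log2 fold changes are on this scale and understate changes of low genes. Single members were also compared with a two-sided exact permutation test, whose smallest possible p is 0.1 between groups of 3 tumors and 0.005 for the main effects. No member passed the limma limits in any of the 7 comparisons of all tumors. A gene that reached 1 TPM in the tumors of 1 side alone was tested only because it is high there, so its direction was favored by the filter. Among the members this held for Plxnb3 with doxorubicin, Sema4f with the antibody over all tumors and Sema6b for anti-PD-1 against IgG1. Of the marker genes it held for Bpifa2 in both main effects and for Bpifa2, Smr3a and Csn2 in both pairs with DOX/IgG1.

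Doxorubicin was first compared over both antibodies, 6 tumors against 6. Efnb1 was higher, and Sema6a, Unc5a and Ntn4 were lower, in the doxorubicin tumors, none of them past the limits. limma called 0 of the 58 members, beside 0.0204% of all 14735 genes. At an unadjusted p below 0.05 there were 10 of 58 members (17.2%), beside 12% of all genes; 6 were higher with doxorubicin, beside 8.82% of all genes, and 4 lower, beside 3.16%. The median log2 fold change was 0.19 over the members and 0.12 over all genes, and 0.18 and 0.11 without genes tested through 1 side alone. Median-of-ratios scaling of the libraries moved the median of all genes by -0.11, to 0.01, so that changes of this size are not read as a direction.

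In TPM without scaling, Efnb1 was the 1 member of 58 whose 6 doxorubicin tumors did not overlap with the other 6, beside 0.719% of all genes. Its highest tumor without doxorubicin, IgG1 replicate 1 (8.04 TPM), had a median-of-ratios factor of 0.8512. Its lowest tumor with doxorubicin, DOX/IgG1 replicate 2 (8.15 TPM), had a factor of 1.09. Divided by these factors the tumors change order, so the groups then overlap. Without scaling, Efnb1 had a log2 fold change of 0.79 (SE 0.25), with a limma adjusted p of 0.241. Its exact permutation p was 0.005, the smallest that test allows. That permutation p follows from the groups not overlapping, for which Efnb1 was named, and is not adjusted over the members. The log2 fold change of Efnb1 was 0.80 with IgG1 and 0.78 with anti-PD-1. Sema6a had a log2 fold change of -0.70 (SE 0.19, limma adjusted p = 0.206, the smallest among the members). Unc5a had -1.71 (SE 0.48, limma adjusted p = 0.211), the only member past the fold limit in all 12 tumors, and Ntn4 had -0.75 (SE 0.24, limma adjusted p = 0.251). On the higher side, Plxnb1 had 0.70 (SE 0.22, limma adjusted p = 0.242), Plxna2 0.72 and Nrp1 0.56.

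By family, the 8 plexins tested had a positive log2 fold change (median 0.48), beside 63.3% of all genes, but Plxnb3 was tested only through its level in doxorubicin tumors, so that 7 of 7 others count, and Plxna1 and Plxnb2 turned negative under median-of-ratios scaling. With IgG1, 4 of 7 plexins were positive, and with anti-PD-1 7 of 7, of which Plxnb2 turned negative with scaling. The 3 Slits (median 0.40) and both neuropilins (median 0.40) were positive with and without this scaling over both antibodies. With IgG1, 2 of 3 Slits were positive (median 0.24), and Slit2 was at -0.15 (-0.47 to 0.39 on leaving out each tumor). Without DOX/IgG1 replicate 1, 3 of 3 Slits were positive with IgG1 (median 0.39). The 11 Eph receptors tested split into 5 positive and 6 negative values (median -0.11), of which Ephb3 turned from positive to negative with scaling. Of the 18 semaphorins tested, 13 were positive and 5 negative (median 0.16), and Sema4g turned with scaling. Positive values were found in 2 of 3 Robos, 3 of 6 ephrins, 1 of 2 netrins (Ntn1, which turned with scaling) and 2 of 5 Unc5 symbols. Positive values without DOX/IgG1 replicate 1 were found in 8 of 8 plexins (Plxnb3 again through doxorubicin tumors alone), 3 of 3 Slits, 2 of 2 neuropilins, 3 of 3 Robos, 5 of 11 Eph receptors, 13 of 18 semaphorins, 4 of 6 ephrins, 1 of 2 netrins and 3 of 5 Unc5 symbols, beside 63.8% of all genes; scaling was not tried without that tumor. The medians were then 0.55 for plexins, 0.58 for Slits, 0.49 for neuropilins, -0.26 for Eph receptors and 0.30 for semaphorins.

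Without DOX/IgG1 replicate 1, 16 of 58 members (27.6%) had an unadjusted p below 0.05, beside 14.7% of all genes. As that tumor was left out partly for its extreme member values, this share is not read as a result about the members. Of these 16, 12 were higher and 4 lower with doxorubicin, against 6 and 4 in all 12 tumors. The share of all genes by direction is not given for the fit without that tumor. In that fit 0 members passed both limits, beside 1.44% of all genes. In TPM without scaling, Epha7 and Efnb1 were then the 2 members whose groups did not overlap, beside 1.81% of all genes. The log2 fold change of Epha7 was -0.61 (SE 0.33, limma adjusted p = 0.486) in all 12 tumors and -0.98 (SE 0.16, limma adjusted p = 0.0231) without that library, just short of the fold limit; over 17 alternatives its adjusted p ran from 0.0231 to 0.659. That tumor held the highest Epha7 value of the 12, so the smaller adjusted p of Epha7 without it is favored by the choice to leave it out. Nrp1 had 0.56 with that tumor and 0.78 without it (SE 0.18, limma adjusted p = 0.0655; 0.0655 to 0.554 over the alternatives).

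Past the fold limit without that tumor were Unc5a at -1.42, Sema3d at 1.25 and Robo2 at 1.19. In all 12 tumors Robo2 was at 0.62, and at 0.28 with a pseudocount of 0.1. The limma adjusted p of these 3 without that tumor was 0.155 (0.155 to 0.36 over 17 alternatives), 0.167 (0.167 to 0.727) and 0.131 (0.131 to 0.945).

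Marker genes were put through the same doxorubicin comparison, and limma called none of them in all 12 tumors. At an unadjusted p below 0.05, 3 of 4 milk protein genes were lower (list median -1.17), 3 of 6 Schwann cell and nerve markers higher (median 0.51) and 2 of 3 salivary markers tested higher (median 1.62). Of the salivary markers, Bpifa2 was tested through doxorubicin tumors alone, with and without DOX/IgG1 replicate 1. Of the luminal markers 1 of 6 was higher and 1 lower, and 1 gene each was higher among 8 fibroblast, 5 T and NK cell and 5 adipocyte markers. Basal, endothelial, macrophage and skeletal muscle lists had 0 such genes. limma called, without DOX/IgG1 replicate 1, 3 of 7 basal, 2 of 8 fibroblast, 1 of 6 luminal, 1 of 5 T and NK cell and 1 of 6 Schwann cell and nerve markers, all higher, and unadjusted p was below 0.05 in 4, 4, 2, 3 and 3 genes of these lists. Of the other lists, unadjusted p was then below 0.05 in 3 of 5 adipocyte markers and 1 of 3 salivary markers, all higher, in 3 of 4 milk protein genes, all lower, and in 2 of 8 endothelial markers, 1 of them higher. The part of these cells in the member values was not tested.

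**Figure D3:**
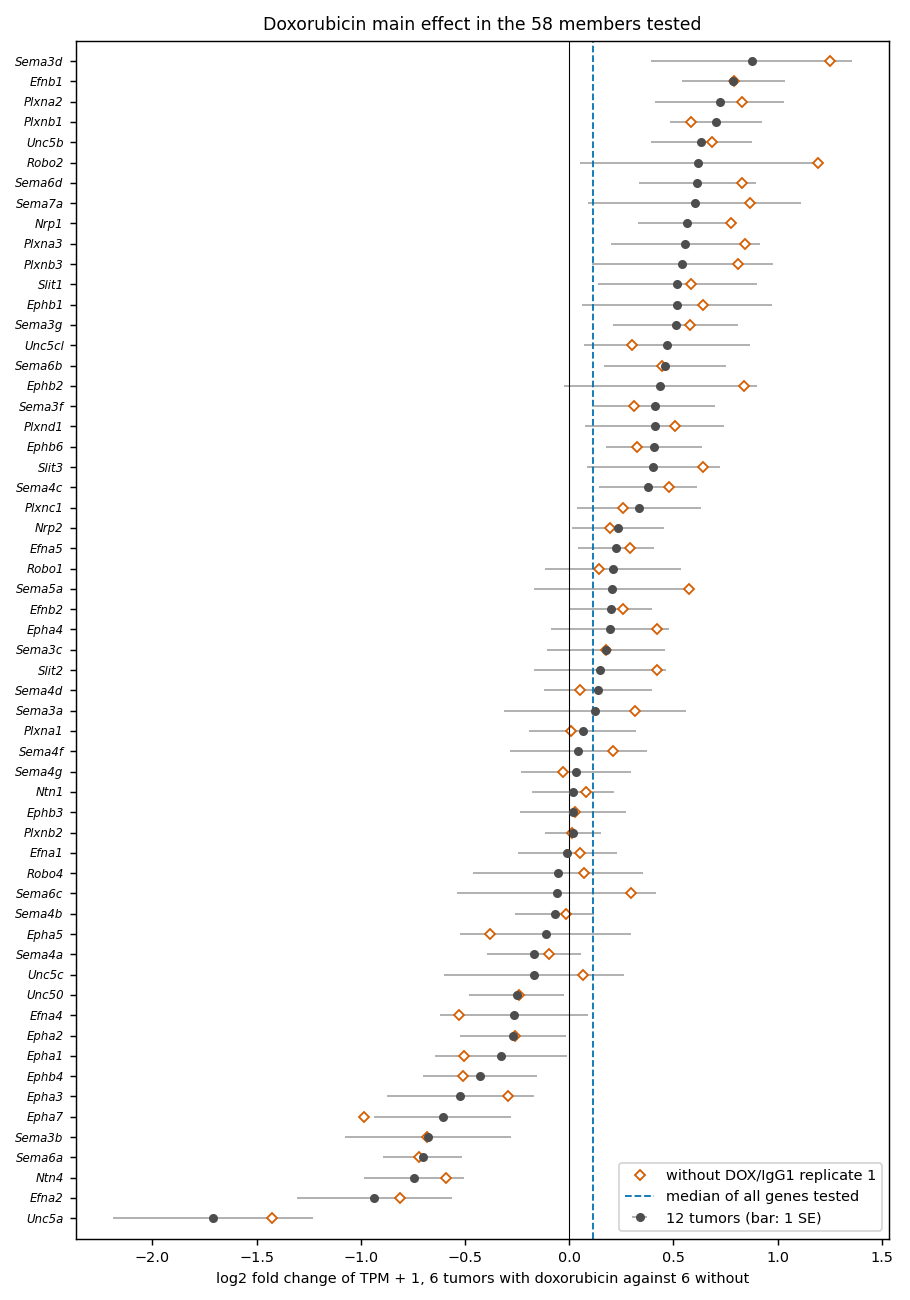
Log2 fold change (TPM + 1) of the 58 tested members between the 6 tumors with and the 6 without doxorubicin, with bars of 1 SE, and open diamonds for the fit without DOX/IgG1 replicate 1. The dashed line is the median of all genes tested (0.12), and Unc5a lies farthest to the left at -1.71.

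With IgG1, DOX/IgG1 was compared with IgG1. Unc5a, Sema3b and Sema6a were lower and Plxna2, Sema3c and Efnb1 higher in the DOX/IgG1 tumors, none past the limits. limma called 0 of 57 members, beside 0.036% of all 13874 genes, and 5 members (8.77%) had an unadjusted p below 0.05, beside 7.73%. The groups did not overlap in 10 of 57 members (17.5%), beside 14% of all genes. Unc5a had a log2 fold change of -2.44 (SE 0.59, limma adjusted p = 0.46), Sema3b -1.23 (SE 0.35, limma adjusted p = 0.479), Plxna2 1.19 and Sema3c 0.92. Leaving out each tumor in turn gave -2.94 to -1.98 for Unc5a, -1.51 to -1.06 for Sema3b, 0.94 to 1.55 for Plxna2 and 0.73 to 1.16 for Sema3c. With a pseudocount of 0.1, Unc5a, listed at 0 in DOX/IgG1 replicate 1, was at -3.88, and at -2.64 in the doxorubicin comparison over both antibodies. Sema3b stands in the study's own gene list for this comparison, which was drawn from these tumors and is not independent evidence of its direction. Of the markers in all 6 tumors, 2 of 3 salivary genes were called higher and 3 of 4 milk protein genes were lower at an unadjusted p below 0.05. Bpifa2 and Smr3a, the 2 called, and Csn2 reached 1 TPM on 1 side alone, so their direction is not read. At the same limit, 1 gene each was lower among luminal (Epcam), endothelial (Cdh5) and fibroblast markers (Col1a1). Also, 1 each was higher among T and NK cell (Cd3g) and Schwann cell markers (S100b). Their part was not tested.

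Without DOX/IgG1 replicate 1, 1 of 57 members, Sema3d, passed both limits, beside 0.879% of all genes. Its log2 fold change was 2.53 (SE 0.43, limma adjusted p = 0.0595), against 1.53 (SE 0.79, limma adjusted p = 0.696) with that tumor, and its adjusted p over 11 alternatives ran from 0.0595 to 0.933. Of the members, 12 (21.1%) then had an unadjusted p below 0.05, beside 13% of all genes. Between 2 and 3 tumors, 27 members (47.4%) did not overlap, beside 32.6%. Groups this small are apart by chance more often than groups of 3. Epha7 had -0.76 (SE 0.25, limma adjusted p = 0.254; 0.254 to 0.998 over 12 alternatives) without that tumor and -0.05 (SE 0.52) with it. Unc5a was at -1.98 and Plxna2 at 1.55 without it, with limma adjusted p of 0.185 (0.185 to 0.86 over 12 alternatives) and 0.181 (0.181 to 0.901).

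Markers also differed between DOX/IgG1 and IgG1 without that tumor. At an unadjusted p below 0.05, 3 of 8 fibroblast markers were higher (Dcn, Lum and Pdgfra) and Col1a1 lower (list median 0.75), and 3 of 7 basal (median 1.02), 3 of 4 T and NK cell and 2 of 6 Schwann cell and nerve markers were higher. Dcn, Cd3g and S100b were called, and so were 3 of 3 salivary genes, all higher. The salivary genes Bpifa2 and Smr3a and the milk protein gene Csn2 were again tested through 1 side alone, so their direction is not read. Of the luminal markers Krt19 was higher and Epcam and Elf5 lower, and Cdh5 and 3 of 4 milk protein genes were lower. Their part in the call of Sema3d and in the other member values was not tested.

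With anti-PD-1, DOX/anti-PD-1 was compared with anti-PD-1. Epha7 was lower by more than the spread within either group, at 33.6 ± 3.27 against 76.9 ± 11.5 TPM (SD, n = 3). Its log2 fold change was -1.16 (SE 0.23), with a limma adjusted p of 0.429, the smallest among the members, and an exact permutation p of 0.1. Leaving out each tumor in turn gave -1.28 to -1.07, and over 12 alternatives the adjusted p ran from 0.352 to 0.837. Epha7 was in the study's list for this comparison, drawn from these tumors, so its direction is not independent evidence.

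limma called 0 of the 52 members tested, beside 0% of all 13736 genes. At an unadjusted p below 0.05 there were 6 (11.5%), beside 8.63%, and 10 (19.2%) did not overlap between groups, beside 14.9%. Among the latter, Ntn4 (-0.85, SE 0.31) and Sema3c (-0.57, SE 0.29) were lower, and Robo2 (1.19, SE 0.55), Plxnd1 (0.94, SE 0.43) and Plxnb1 (0.94, SE 0.29) higher in DOX/anti-PD-1 on the log2 scale. Leaving out each tumor in turn gave -1.13 to -0.54 for Ntn4, -0.75 to -0.32 for Sema3c, 0.55 to 1.56 for Robo2, 0.40 to 1.34 for Plxnd1 and 0.76 to 1.14 for Plxnb1. Of the 52 members, 37 (71.2%) had a positive value, beside 60% of all genes, and the median was 0.30 beside 0.11; with median-of-ratios scaling 34 were positive. In DOX/IgG1 against IgG1, 30 of 57 (52.6%) were positive, beside 60.6%, with a median of 0.05 beside 0.12, and 25 with scaling. Without DOX/IgG1 replicate 1 these were 34 of 57 (59.6%), beside 61.7%, with a median of 0.12 beside 0.15. The anti-PD-1 tumors are also 1 side of anti-PD-1 against IgG1, where 14 of 54 members (25.9%) were positive, beside 47.2%, with a median of -0.24 beside -0.03, and 17 with scaling. Scaling moved the median of all genes to -0.008 in DOX/anti-PD-1 against anti-PD-1, 0.014 in DOX/IgG1 against IgG1 and 0.007 in anti-PD-1 against IgG1. The shares of all genes given here are without scaling and do not apply to the scaled counts. At an unadjusted p below 0.05, 5 of 8 fibroblast, 4 of 5 adipocyte, 3 of 7 basal, 2 of 6 Schwann cell and nerve, 1 of 8 endothelial and 1 of 6 luminal markers were higher and 1 of 4 milk protein genes lower in DOX/anti-PD-1. Their part was not tested.

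**Figure D4:**
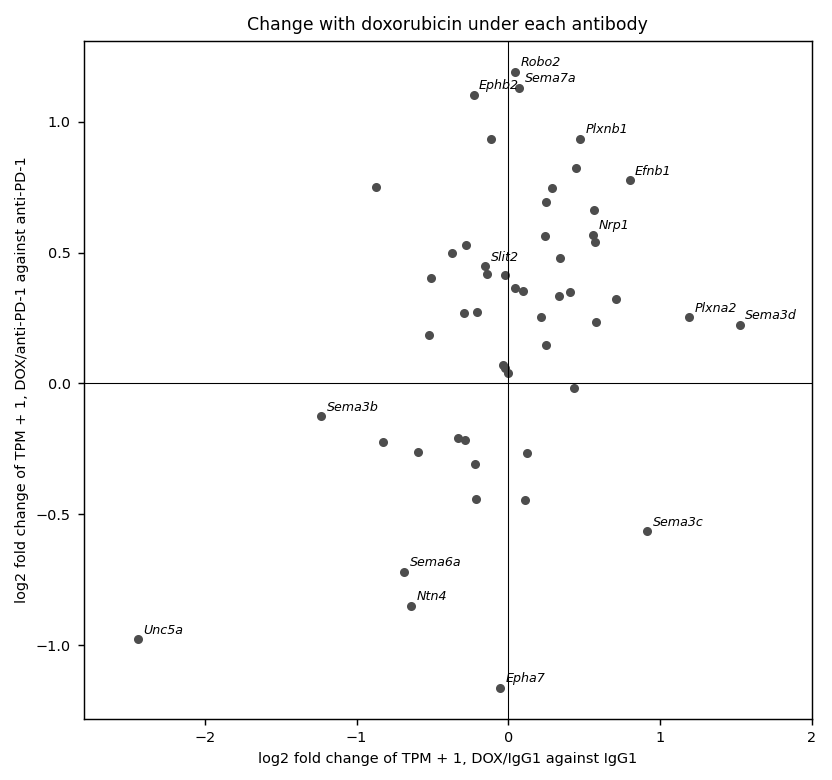
Log2 fold change (TPM + 1) with doxorubicin in the 52 members tested with both antibodies, with IgG1 on the horizontal and with anti-PD-1 on the vertical axis, each point 1 member. Sema3c is higher with IgG1 (0.92) and lower with anti-PD-1 (-0.57), and Efnb1 is higher with both.

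The anti-PD-1 antibody was compared with IgG1 over all 12 tumors. limma called 0 of 58 members, beside 0% of all genes, and 2 members (3.45%), Robo1 and Sema3f, had an unadjusted p below 0.05, beside 4.69%. None of the 58 was apart between the 6 and 6 tumors, beside 0.204% of all genes. Robo1 had a log2 fold change of -0.76 (SE 0.33, limma adjusted p = 0.999) and Sema3f -0.71 (SE 0.29, limma adjusted p = 0.999). Without DOX/IgG1 replicate 1 the limma count was again 0 members, beside 0% of all genes, with 2 members at an unadjusted p below 0.05, beside 6.22%, and 0 apart, beside 0.299%. These 2 were not the same members but Nrp1 (-0.52, SE 0.18) and Sema4f, which reached 1 TPM only in tumors with IgG1 and whose direction is therefore not read; without genes tested through 1 side alone the count was 1 of 57 members, beside 6.03%. Robo1 was then at -0.70 (SE 0.35) and Sema3f at -0.61 (SE 0.30). Nrp1 ran from -0.52 to -0.19 on leaving out each tumor. Leaving out anti-PD-1 replicate 3 brought the count at an unadjusted p below 0.05 from 2 to 0. Among the markers, 2 of 4 milk protein genes were higher, and 2 of 3 salivary, 1 of 8 endothelial, 1 of 6 macrophage and 1 of 6 Schwann cell and nerve genes lower, with anti-PD-1 at an unadjusted p below 0.05 in all 12 tumors. The salivary gene Bpifa2 was tested through tumors with IgG1 alone, with and without DOX/IgG1 replicate 1. In the 11 tumors other than DOX/IgG1 replicate 1, 3 of 5 T and NK cell markers (Cd3e, Cd4 and Cd8a, list median -0.81), 2 of 7 basal markers (Myh11 and Oxtr) and Dcn, Krt19, Kdr, Cd68, S100b and Bpifa2 were lower and 2 of 4 milk protein genes higher. Their part was not tested.

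Without doxorubicin, anti-PD-1 tumors had lower Plxnb1 and Sema3f and higher Epha7 and Sema3d than IgG1 tumors, none past the limits. limma called 0 of 54 members, beside 0% of all 13692 genes, and 3 (5.56%) had an unadjusted p below 0.05, beside 4.6%. In TPM without scaling, the groups did not overlap in 11 members (20.4%), beside 9.88% of all genes. Of these, 9 were lower with anti-PD-1, beside 6.24% of all genes, and 2 higher, beside 3.64%. The 9 include Sema6b, which was tested only through its level in the IgG1 tumors. Without genes of this kind 10 of 53 members (18.9%) were apart, beside 9.52%, with 8 lower, beside 6.03%. The 9 also include Sema3f and Plxnb2, whose groups overlap when each tumor is divided by its median-of-ratios factor. Counts of members apart with scaling are not given for any comparison. Plxnb1 had -0.65 (SE 0.28), Sema3f -0.78 (SE 0.38), Epha7 0.52 (SE 0.22) and Sema3d 0.87 (SE 0.37), each with a limma adjusted p of 0.996. Leaving out each tumor in turn gave -0.85 to -0.50 for Plxnb1, -0.97 to -0.48 for Sema3f, 0.42 to 0.64 for Epha7 and 0.70 to 1.00 for Sema3d. The marker sums of fibroblasts and of endothelium were also lower in the 3 anti-PD-1 tumors than in the 3 IgG1 tumors; of single markers, Col1a1, Krt19 and Cd68 were lower and Wap and Cd3g higher at an unadjusted p below 0.05. Their part was not tested. The count of 3 at an unadjusted p below 0.05 was 0 without IgG1 replicate 2 and 1 without anti-PD-1 replicate 2 or 3.

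With doxorubicin, DOX/anti-PD-1 tumors had less Sema3c than DOX/IgG1 tumors, at 20.5 ± 1.47 against 51.4 ± 13.6 TPM (SD, n = 3). Its log2 fold change was -1.25 (SE 0.28), with a limma adjusted p of 0.988 and an exact permutation p of 0.1. Leaving out each tumor in turn gave -1.44 to -1.06. Sema3c was in the study's list for this comparison, drawn from these tumors, so its direction is not independent evidence. limma called 0 of 56 members, beside 0% of all 13946 genes, and only Sema3c (1.79%) had an unadjusted p below 0.05, beside 4.7%. The groups did not overlap in 3 members (5.36%), Sema3c, Epha3 (0.83, 0.39 to 1.10 on leaving out each tumor) and Plxnd1 (0.31, 0.22 to 0.41), beside 10.2% of all genes. The lowest of these values, 0.39 for Epha3 and 0.22 for Plxnd1, were those without DOX/IgG1 replicate 1, and Epha3 was at 1.30 with a pseudocount of 0.1. Without DOX/IgG1 replicate 1, limma called 0 members, beside 0.0287% of all genes. Then 6 members (10.7%) had an unadjusted p below 0.05, beside 7.54%, and 11 (19.6%) did not overlap between 3 and 2 tumors, beside 24.7%. The log2 fold change of Sema3c was then -1.44 (SE 0.28, limma adjusted p = 0.228; 0.228 to 1 over 12 alternatives). The other 5 members at an unadjusted p below 0.05 were then Sema3d (-1.44), Nrp1 (-0.78), Plxna2 (-1.32), Plxnb3 (-1.67) and Plxna1 (0.74). On leaving out each tumor these ran, in the same order, from -1.44 to 0.23, -0.78 to -0.03, -1.32 to -0.71, -1.67 to -0.36 and 0.36 to 0.74. In all 6 tumors, the 4 milk protein genes were higher (list median 2.02), and 2 of 3 salivary genes and S100b lower, in DOX/anti-PD-1 at an unadjusted p below 0.05. Bpifa2, Smr3a and Csn2 were tested through 1 side alone, with and without DOX/IgG1 replicate 1, so their direction is not read. In the 5 tumors other than DOX/IgG1 replicate 1, 3 of 4 milk protein genes (median 1.68) and Elf5 were higher, and 3 of 3 salivary genes (1 called), 3 of 7 basal, 3 of 8 fibroblast (Dcn, Lum and Pdgfra) and 2 of 5 T and NK cell markers and Krt19, Kdr and S100b were lower. Their part was not tested.

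The interaction asks whether the doxorubicin difference depends on the antibody. limma called 0 of 58 members, beside 0.00679% of all genes, and 1 (1.72%), Sema3c, had an unadjusted p below 0.05, beside 4.71%. Sema3c differed by -1.48 on the log2 scale (SE 0.43, limma adjusted p = 0.993), being 0.92 with IgG1 and -0.57 with anti-PD-1. Without DOX/IgG1 replicate 1, limma called 0 members, beside 0.00679% of all genes, and 5 (8.62%) had an unadjusted p below 0.05, beside 6.45%. These were Sema3d (-2.31), Plxnb3 (-1.75), Sema3c (-1.67), Plxna2 (-1.30) and Plxna1 (1.10), and the limma adjusted p of Sema3d was 0.544 (0.544 to 1 over 17 alternatives). Leaving out each tumor in turn gave -2.31 to -0.64 for Sema3d, -1.72 to -1.23 for Sema3c, -1.30 to -0.68 for Plxna2 and 0.60 to 1.22 for Plxna1. Plxnb3 (-1.75 to -0.44) reached 1 TPM only in doxorubicin tumors, so its value is not read. Of the markers, 2 of 3 salivary genes had a negative and Csn2 and Col1a1 a positive value at an unadjusted p below 0.05, and limma called 1, a salivary gene. The salivary genes were Bpifa2, above 0 only in DOX/IgG1, and Smr3a, above 0 only there and in anti-PD-1 replicate 3. Both were tested only because they are high in DOX/IgG1, so their direction is not read. With DOX/IgG1 replicate 1 left out, 3 of 3 salivary genes (1 called), Dcn and S100b were negative and Csn2, Col1a1 and Elf5 positive. Their part was not tested.

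Other genes of the pathways were taken from lists of 13 further ligands, receptors and coreceptors and 42 effectors. In the doxorubicin comparison over 12 tumors, limma called 0 of 11 and 0 of 40 tested genes of these lists; at an unadjusted p below 0.05 there were 1 of 11, lower, and 7 of 40, all higher, beside 12% of all genes. These counts were, without DOX/IgG1 replicate 1, 2 of 11 (1 of them tested through doxorubicin tumors alone) and 9 of 40, beside 14.7%. The 1 in all 12 tumors was Flrt3, a ligand of Unc5 receptors, with -0.72 (SE 0.31, limma adjusted p = 0.368), and with -0.45 (SE 0.24) without that tumor. Srgap2, a GTPase activator that binds Robo1, was at 52.4, 34.3 and 43.7 TPM in IgG1, 33.4, 52.1 and 36.0 in anti-PD-1, 85.1, 70.9 and 55.3 in DOX/IgG1 and 72.7, 54.5 and 74.2 in DOX/anti-PD-1. In TPM without scaling, the 6 doxorubicin tumors were all above the other 6, with a log2 fold change of 0.71 (SE 0.18, limma adjusted p = 0.205). The median-of-ratios factors of IgG1 replicate 1 (52.4 TPM) and DOX/anti-PD-1 replicate 2 (54.5 TPM) were 0.8512 and 1.122. Divided by them these tumors change order, so the groups then overlap. Limk2, a kinase of cofilin, had 0.75 (SE 0.20, limma adjusted p = 0.206). Dcc, the main netrin-1 receptor of neurons, was listed at 0 in all 12 tumors, whereas its relative Neo1 was at 58.8, 28.1 and 34.5 TPM in IgG1, 34.1, 39.7 and 30.9 in anti-PD-1, 58.4, 26.2 and 19.4 in DOX/IgG1 and 19.6, 34.5 and 17.4 in DOX/anti-PD-1.

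With the antibody over 12 tumors, 1 of 11 further ligands and receptors, Kdr (also in the endothelial list), and 0 of 40 effectors had an unadjusted p below 0.05, beside 4.69% of all genes. With DOX/IgG1 against IgG1 these counts were 0 of 10 and 3 of 40, beside 7.73%, and with DOX/anti-PD-1 against anti-PD-1 0 of 10 and 3 of 39, beside 8.63%. They were 0 of 10 and 2 of 40 with anti-PD-1 against IgG1, beside 4.6%, and 0 of 11 and 1 of 39 with DOX/anti-PD-1 against DOX/IgG1, beside 4.7%. In the interaction they were 0 of 11 and 1 of 40, beside 4.71%. No gene of either list was called by limma in these comparisons of all tumors.

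The counts without DOX/IgG1 replicate 1 were 2 of 11 and 0 of 40 with the antibody, beside 6.22%, 0 of 10 and 7 of 40 with DOX/IgG1 against IgG1, beside 13%, 2 of 11 and 2 of 39 with DOX/anti-PD-1 against DOX/IgG1, beside 7.54%, and 0 of 11 and 2 of 40 in the interaction, beside 6.45%. limma then called 1 of these genes, Chn2, a GTPase-activating protein for Rac, in DOX/IgG1 against IgG1. Its log2 fold change was -1.34 (SE 0.45, limma adjusted p = 0.547) in all tumors and -1.88 (SE 0.29, limma adjusted p = 0.0445; 0.0445 to 0.892 over 12 alternatives) without that tumor.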

How the data were processed

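Total RNA of 12 tumors was sequenced by the authors from 1 end on a NextSeq instrument. Reads were trimmed (skewer), mapped to mm10 (STAR) and turned into gene levels (RSEM) by the authors; versions are not given in the sources used here. The authors deposited log2(TPM + 1) with decimal commas, which were converted back to TPM; every value was a multiple of 0.01 TPM within a tolerance of 0.0005. Values keep no depth. Groups came from the labels. Genes at 1 TPM or more in at least 3 tumors of a fit were tested with limma 3.58.1 (R 4.3.3; lmFit, eBayes with a mean-variance trend) on log2(TPM + 1) with Benjamini-Hochberg adjustment, after the fit was tested on simulated data. Pairwise fits used the 6 tumors of 2 groups, and main effects and the interaction all 12. A test for counts, planned for that case, was not used on these TPM. Exact permutation tests used 20 assignments for pairs and 400 within strata for main effects.

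Members are named where they stand in the study's gene lists (Epha7, Sema3b, Sema3c), were called, had among the 3 largest rises or falls of a comparison with groups that do not overlap, or had the highest mean of their family; other members, and the pathway genes among fixed lists, were chosen after their values were seen, as were the promoters and motif shown. Members and lists were chosen with earlier results of these data known. Promoters are from RefSeq. Alternatives were a pseudocount of 0.1, no filter, a filter at 5 TPM, median-of-ratios scaling, a replicate block, no fold limit, all 12 tumors in 1 fit, and leaving out each tumor; leaving out DOX/IgG1 replicate 1 and dropping the fold limit together was added after seeing the data. The values of 1 effector gene are not reported here.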

Additional observations from a re-analysis of the deposited data

Results flagged for a closer look

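For 21 named members, the 6 tumors with and the 6 without doxorubicin were searched for a tumor far from the others, by the gap to its neighbour over the whole range. In 42 such searches 2 tumors stood out, and about 1 in 20 would by chance. Epha7 was at 137.53 TPM in DOX/IgG1 replicate 1, and the next highest of the 6 doxorubicin tumors was at 36.8 TPM. Slit2 was at 44.12 TPM in IgG1 replicate 3, and the next highest of the 6 tumors without doxorubicin was at 22.9 TPM. The groups of 3 are too small for this search.

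Sema3c went opposite ways with doxorubicin under the 2 antibodies. All 3 DOX/IgG1 tumors were above the IgG1 tumors and all 3 DOX/anti-PD-1 tumors below the anti-PD-1 tumors. The interaction was -1.4817 on the log2 scale with a limma adjusted p of 0.993, which did not pass.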

How the results depend on the processing

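Depth is unknown, the groups hold 3 tumors, and doxorubicin goes with starting size and schedule, which limits all comparisons. The count of members called was 0 in all 7 comparisons and stayed 0 with a pseudocount of 0.1, no filter, a filter at 5 TPM, median-of-ratios scaling, the replicate block, no fold limit and, for pairs, all 12 tumors in 1 fit. Leaving out each tumor gave 0 to 1 in DOX/IgG1 against IgG1 (1, Sema3d, without DOX/IgG1 replicate 1) and 0 elsewhere. Without that tumor and with no fold limit, chosen after seeing the data, the counts were 2 for the doxorubicin main effect (Epha7 and Nrp1) and 1 for DOX/IgG1 against IgG1. The share of all genes called at this setting is not given, so these counts are not read as a result about the members. Members at an unadjusted p below 0.05 numbered 10 in the doxorubicin main effect, and 7 to 16 when 1 tumor was left out (16 without DOX/IgG1 replicate 1). These counts were 2 and 0 to 3 in the anti-PD-1 main effect, 5 and 2 to 12 in DOX/IgG1 against IgG1 (2 without IgG1 replicate 2, 12 without DOX/IgG1 replicate 1), 6 and 4 to 9 in DOX/anti-PD-1 against anti-PD-1, 3 and 0 to 4 in anti-PD-1 against IgG1 (0 without IgG1 replicate 2), 1 and 1 to 6 for DOX/anti-PD-1 against DOX/IgG1 (6 without DOX/IgG1 replicate 1), and 1 and 1 to 5 in the interaction (5 without DOX/IgG1 replicate 1 or DOX/anti-PD-1 replicate 3). With all 12 tumors in 1 fit the count was 0 for anti-PD-1 against IgG1, and it was 2 for DOX/anti-PD-1 against DOX/IgG1. The cause was not tested.

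Replicate numbers do not pair the tumors: deviations of the 18 same-numbered pairs correlated with r from -0.096 to 0.134, against -0.19 to 0.113 in 36 other pairs (across genes). With the replicate block the count of members called was 0 in each comparison, and members at an unadjusted p below 0.05 in anti-PD-1 against IgG1 went from 3 to 1.

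Single-gene results were followed where a named member was called, had groups apart or had an unadjusted p below 0.05 in that comparison, with or without DOX/IgG1 replicate 1; Epha7, Sema3b and Sema3c were followed throughout, and Flrt3, Limk2, Srgap2 and Chn2 in 1 comparison each. This choice was made after seeing the data. Of 857 values under alternatives (61 results), 839 kept their direction and side of the limits, 2 passed the limits (Sema3d at 2.53 and Chn2 at -1.88 in DOX/IgG1 against IgG1, without DOX/IgG1 replicate 1) and 16 turned in direction. Over all named members in each comparison, the sign differed between alternatives in 48 of 147.

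Of the 16, 2 came from other settings than leaving out a tumor: Robo2 in DOX/IgG1 against IgG1 was at -0.84 with a pseudocount of 0.1 and at -0.0405 with median-of-ratios scaling. It was also at -0.13, -0.60 and -0.47 without IgG1 replicate 1 and DOX/IgG1 replicates 2 and 3 (range -0.60 to 1.20 over left-out tumors and -0.84 to 1.20 over all alternatives). For Epha7 the others were the anti-PD-1 main effect (0.34 without DOX/IgG1 replicate 1, 0.06 without DOX/anti-PD-1 replicate 1 and 0.02 without replicate 3; range -0.15 to 0.34), DOX/IgG1 against IgG1 (0.26 and 0.34 without DOX/IgG1 replicates 2 and 3; range -0.76 to 0.34) and DOX/anti-PD-1 against DOX/IgG1 (0.11 without DOX/IgG1 replicate 1; range -0.98 to 0.11). For Sema3b they were DOX/anti-PD-1 against anti-PD-1 (0.15 and 0.64 without anti-PD-1 replicate 2 and DOX/anti-PD-1 replicate 3; from -0.67) and anti-PD-1 against IgG1 (0.056 without anti-PD-1 replicate 3; from -0.49). For Sema3c it was anti-PD-1 against IgG1 (-0.0179 without anti-PD-1 replicate 1; up to 0.47), and for Sema3d DOX/anti-PD-1 against DOX/IgG1 (0.23 without DOX/IgG1 replicate 3; from -1.44). The cause was not tested.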
